A study of Mus musculus with 9 samples.

Results

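The kinesins are motor proteins that use ATP to act on microtubules. One group of them builds and moves the mitotic spindle and completes cytokinesis, and is made mainly while a cell prepares to divide. Another group carries vesicles, organelles and ciliary cargo along microtubules in dividing and non-dividing cells alike. In skeletal muscle, myoblasts leave the cell cycle before they fuse into multinucleated myotubes, and microtubule motors then take part in placing nuclei and organelles. The kinesin genes were taken as every gene on the array whose symbol is Kif followed by a digit. This gave 62 probes of 38 genes among 39429 probes. By their described roles, 11 genes were grouped as mitotic, 13 as transport motors and 13 as other kinesins, and 1 is the pseudogene Kif4-ps. This grouping was made with earlier results of these data known. Kif2a, a kinesin-13 relative of the mitotic Kif2c, was placed among the other kinesins, so counts of the mitotic group leave it out. Probes entered the tests when all 3 arrays of some group showed them well above background, which left 34 kinesin genes among 21995 genes tested. Kif2b, Kif6, Kif12 and Kif27 did not pass.

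The RNA came from C2C12 cells, a line of mouse myoblasts that forms myotubes in culture, named as myotubes in the series title. Cells were treated for 72 h with vehicle or with 1,25 (OH)2-vitamine D3 (calcitriol, the hormonal form of vitamin D) at 1 nM or 10 nM, with 3 biological replicates per group. As a single established line without an animal host, the cells are a culture model, and the stage at which treatment began is not given in the sources used here. Levels are given as log2 of the processed signal relative to the array's own 75th percentile, so that a level of 0 lies at that percentile and 1 unit is a factor of 2. Of 7 skeletal muscle markers, 7 were measured on all arrays, and their mean level was 3.92 to 4.19 on the vehicle arrays, 4.32 to 4.40 at 1 nM and 4.31 to 4.41 at 10 nM.

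Vehicle replicate 3 differed from the remaining 8 arrays in its spot marks and its signal. Its array had 6124 spots marked as non-uniform against 8 to 56 on the others, and 96.4% of its spots were well above background against 67.1% to 79.2%. Its median processed signal was 659.6 intensity units against 215.6 to 315.4, and its array weight in limma 0.130 against 0.528 to 3.30. Slide 1 held vehicle replicates 1 and 2 and replicate 1 of each dose, slide 2 held vehicle replicate 3, 1 nM replicates 2 and 3 and 10 nM replicate 2, and slide 3 held 10 nM replicate 3 alone. The 75th percentile of the processed signal was 2826 to 3389 intensity units on all 9 arrays. Kinesin results whose call changed without vehicle replicate 3 are given with and without it.

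Promoters of several kinesins are shown first, because the mitotic genes shared sequence elements that were not used to choose them. Many genes of late cell cycle carry a cell cycle genes homology region (CHR, here the letters TTTGAA on either strand) near the transcription start and a CCAAT box (CCAAT on either strand) further upstream. The CHR is known to be bound by the DREAM and MuvB complexes, which repress such genes in resting cells and help to induce them in dividing ones, and the CCAAT box by the activator NF-Y. The windows run from 110 bases before to 24 bases after the RefSeq start in GRCm38.p6, with CHR and CCAAT matches in capitals. The following 6 mitotic kinesins are shown because a CHR lies within 30 bases of their start, namely Kif11 at chr19:37376272-37376406 (+ strand), Kif15 at chr9:122950971-122951105 (+ strand), Kif18b at chr11:102925100-102925234 (- strand), Kif20b at chr19:34922248-34922382 (+ strand), Kif22 at chr7:127042396-127042530 (- strand) and Kif23 at chr9:61946775-61946909 (- strand). Kif4, whose CHR also lies within that distance, is not shown, nor are Kif14 and Kif2c, whose CHR begins at -228 and -103 from the start, and Kif18a, which has none.
Kif11: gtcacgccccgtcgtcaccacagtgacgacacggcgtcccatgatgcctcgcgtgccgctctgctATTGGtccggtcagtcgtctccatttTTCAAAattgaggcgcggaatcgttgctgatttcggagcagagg
Kif15: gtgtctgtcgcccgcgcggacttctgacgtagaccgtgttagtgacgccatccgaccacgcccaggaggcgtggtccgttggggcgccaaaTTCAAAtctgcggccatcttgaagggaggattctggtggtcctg
Kif18b: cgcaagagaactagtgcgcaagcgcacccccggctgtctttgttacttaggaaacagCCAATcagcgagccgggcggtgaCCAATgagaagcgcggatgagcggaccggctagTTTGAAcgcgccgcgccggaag
Kif20b: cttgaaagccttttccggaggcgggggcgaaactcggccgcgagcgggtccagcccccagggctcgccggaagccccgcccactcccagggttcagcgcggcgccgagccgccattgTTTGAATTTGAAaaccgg
Kif22: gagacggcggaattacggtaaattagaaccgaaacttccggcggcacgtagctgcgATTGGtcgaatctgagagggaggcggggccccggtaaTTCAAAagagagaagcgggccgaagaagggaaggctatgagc
Kif23: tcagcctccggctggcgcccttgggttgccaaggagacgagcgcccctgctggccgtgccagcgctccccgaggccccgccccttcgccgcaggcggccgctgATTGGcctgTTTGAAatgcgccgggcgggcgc

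For contrast, the next 3 windows belong to kinesins outside the mitotic group whose calls went in different directions, namely the transport motor Kif5c (lower) at chr2:49619176-49619310 (+ strand), Kif26a (higher) at chr12:112146098-112146232 (+ strand) and Kif26b (lower) at chr1:178529015-178529149 (+ strand). Kif26b is a kinesin outside the mitotic group with both elements in its window, while the Kif5c and Kif26a windows hold no match to either.
Kif5c: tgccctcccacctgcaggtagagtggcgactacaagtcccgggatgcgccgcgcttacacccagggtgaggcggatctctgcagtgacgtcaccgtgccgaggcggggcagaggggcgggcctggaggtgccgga
Kif26a: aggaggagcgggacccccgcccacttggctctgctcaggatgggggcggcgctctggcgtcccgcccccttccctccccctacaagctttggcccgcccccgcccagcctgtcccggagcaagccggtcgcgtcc
Kif26b: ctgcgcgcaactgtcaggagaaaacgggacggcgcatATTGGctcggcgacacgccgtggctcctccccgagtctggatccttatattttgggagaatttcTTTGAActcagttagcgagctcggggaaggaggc

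RefSeq promoter entries, running from 250 bases before to 50 after the start, matched 31 of the 38 kinesin genes, with none for Kif20a, Kif5a, Kif5b, Kif13b, Kif19a, Kif21b and Kif4-ps. A CHR match lay in 9 of 10 mitotic promoters, in 1 of 12 transport promoters (Kif1a) and in 2 of 13 other kinesin promoters (Kif26b and Kif27), against 17.9% of all 32851 promoters. Within 30 bases of the start, a distance chosen after the matches were seen, a CHR lay in 7 of 10 mitotic, 0 of 12 transport and 1 of 13 other promoters, against 3.19% of all. A CCAAT box lay in 6 of 10 mitotic, 4 of 12 transport and 5 of 13 other promoters, against 37.4% of all. Both elements together were present in 6 of 10 mitotic promoters, in those of Kif26b and Kif27 among the other kinesins, and in 6.95% of all. Of the mitotic promoters with both, Kif14 has its CHR (-228) upstream of its CCAAT box (-92), the reverse of the order described above. The mitotic promoter without a CHR match, Kif18a, held an E2F site (TTTCGCGC or TTTGGCGC on either strand), as did Kif15, where it ends next to the CHR without overlapping it. E2F sites were present in 0.813% of all promoters. The consensus vitamin D response element, the DR3 element of the vitamin D receptor, lay in 0.0396% of all promoters and in 0 kinesin promoters. These matches describe letters in the windows and were not tested for binding.

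**Figure D1:**
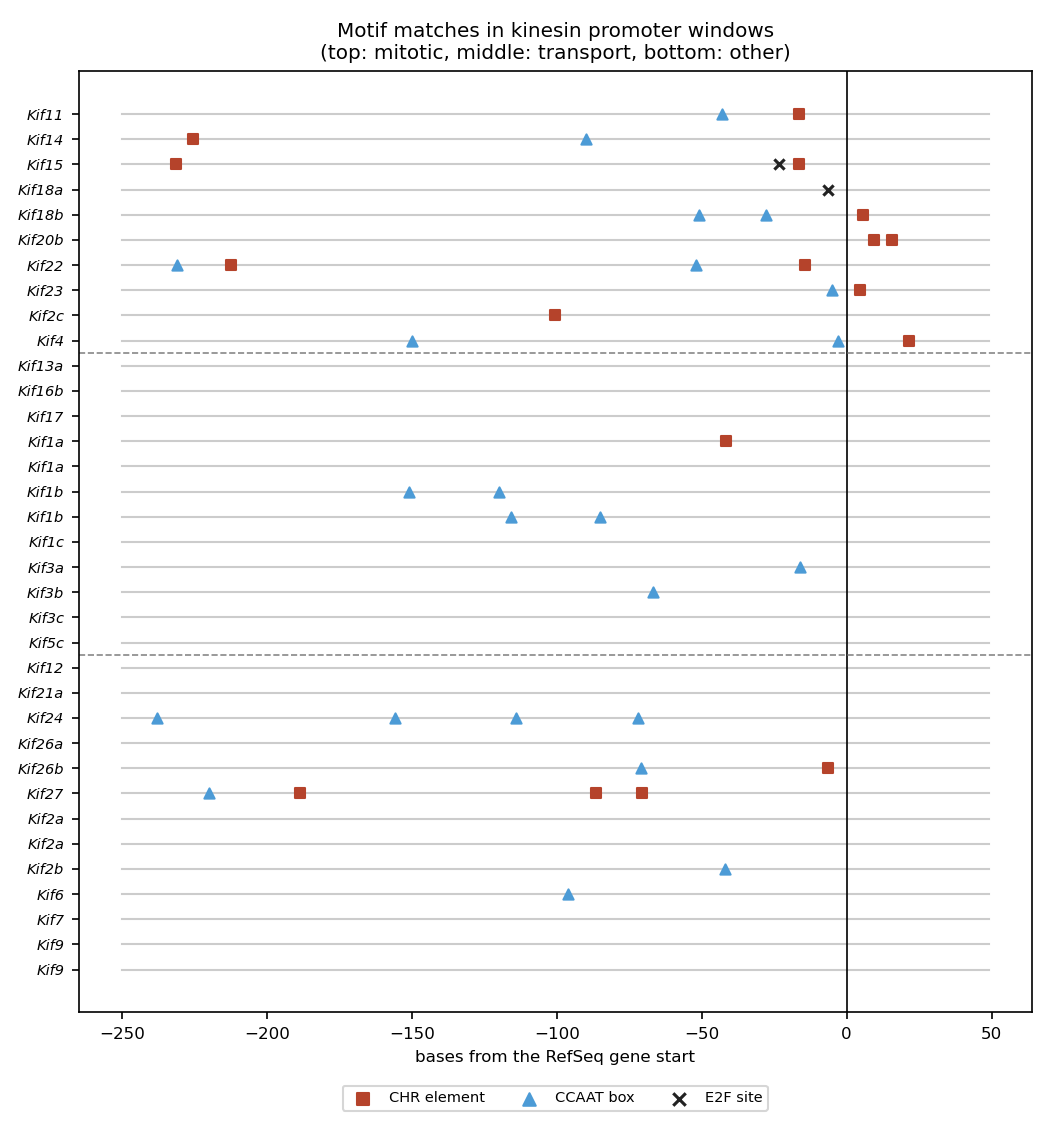
Matches to the CHR element (squares), the CCAAT box (triangles) and the E2F site (crosses) in each kinesin promoter window, by distance in bases from the RefSeq start, one line per promoter entry. Red squares lie in 9 of 10 mitotic promoters at the top and in 1 of 12 transport promoters in the middle.

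All 11 mitotic kinesins were lower at both doses than with vehicle, 9 of 11 by more than a factor of 10. Kif15 at both doses and Kif2c at 10 nM were not well above background on any array, so only a bound on their difference can be given. At 1 nM the log2 differences of the other 10 ran from -4.52 to -1.39, and the median of all 11 with Kif15 at its bound was -3.56, against a median of -0.09 over all genes tested. At 10 nM the other 9 ran from -5.76 to -1.44, and the median of all 11 with Kif15 and Kif2c at their bounds was -4.06, against -0.11 over all genes. By limma with Benjamini-Hochberg adjustment over all genes tested and a threshold of 0.05, 11 of 11 were called lower at 1 nM, where 11.8% of genes tested were called lower and 23.6% were called in either direction. At 10 nM 11 of 11 were called lower, where 14.7% of genes were called lower and 30.1% in either direction. The dose and vehicle arrays did not overlap for 11 of 11 mitotic kinesins at either dose, where 22.7% of genes at 1 nM and 21.9% at 10 nM were lower without overlap. Kif2c and Kif15 passed the signal filter through the vehicle arrays alone, and the other 9 passed at 1 nM as well. Both comparisons use the same vehicle arrays and are not independent. In RNA from whole cultures, fewer dividing cells and less of these transcripts per cell cannot be told apart.

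**Figure D2:**
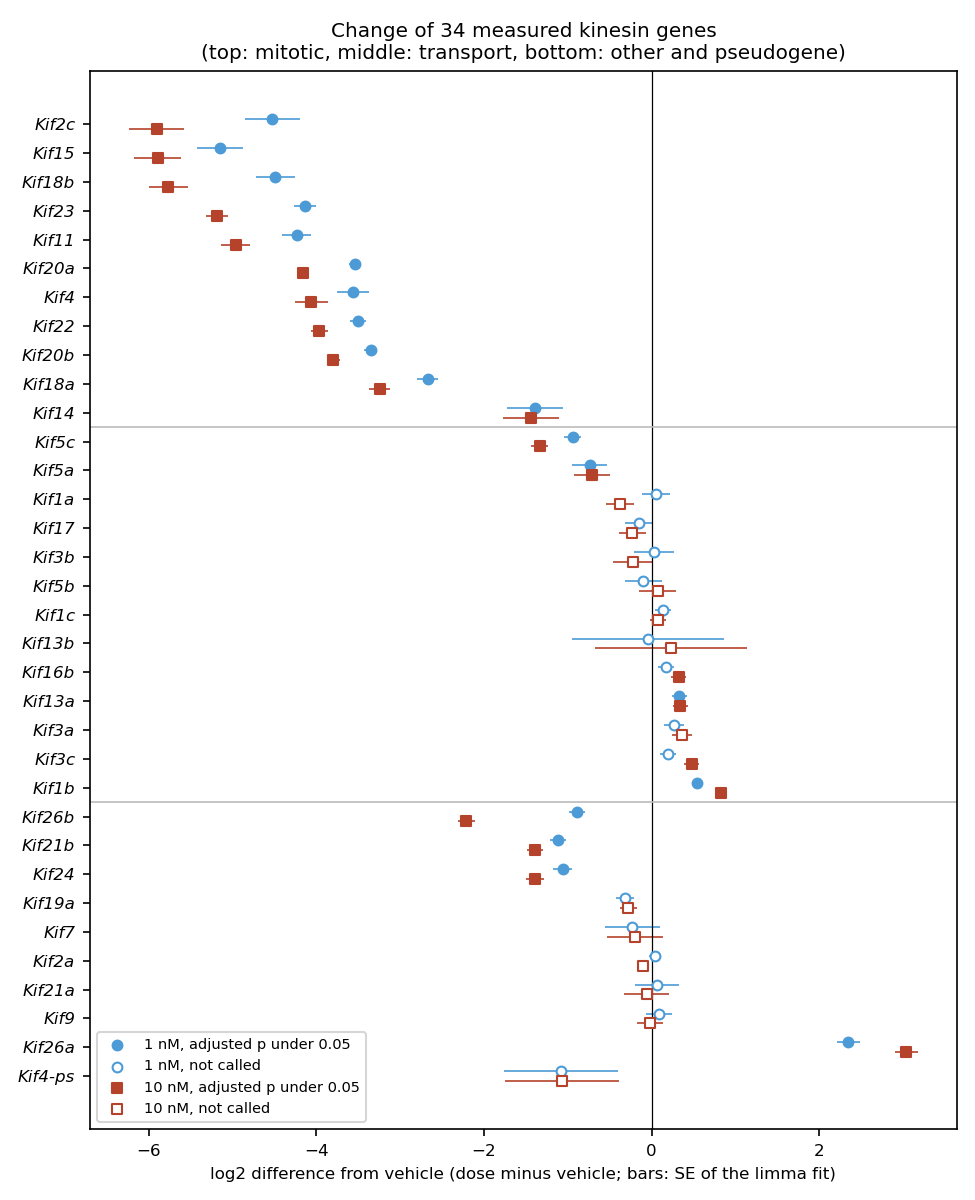
Log2 difference from vehicle of the 34 measured kinesin genes at 1 nM (circles) and 10 nM (squares), with bars for the standard error of the fit and filled symbols for an adjusted p under 0.05. The mitotic kinesins at the top with signal above background on at least 1 array of the dose lie between -5.76 and -1.39. The points of Kif15 at both doses and of Kif2c at 10 nM rest on signals not above background and stand for bounds. The 13 transport kinesins in the middle lie between -1.34 and 0.83.

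Among the motors that set up the bipolar spindle, Kif11 (kinesin-5, which slides antiparallel microtubules and so pushes the poles apart) had levels of -2.01, -1.82 and -1.85 on the vehicle arrays, -6.12, -6.43 and -5.82 at 1 nM, and -6.92, -6.61 and -7.05 at 10 nM. The 3 vehicle arrays lay within 0.2 units of each other and the 6 treated arrays were all far below them. Its log2 difference was -4.23 (SE 0.17, adjusted p = 2.4e-06) at 1 nM and -4.96 (SE 0.17, adjusted p = 7.03e-07) at 10 nM, and at 10 nM the probe was well above background on 1 of 3 arrays. The Kif11 probe lies at chr19:37495755-37495814 in mm9, the build named in the array files. Kif15 (kinesin-12, which helps to keep the spindle bipolar) had levels of -2.91, -2.72 and -2.58 on the vehicle arrays, -8.35, -8.06 and -7.24 at 1 nM, and -8.81, -8.70 and -8.38 at 10 nM. No treated array had a Kif15 signal well above background, so only a bound can be given, which was at least 16.8-fold lower at 1 nM and at least 16.3-fold lower at 10 nM. For bounds, the dim group is set at the lowest signal well above background on its arrays, or at the probe's own signal where that is higher. Adjusted p was 1.07e-05 and 3.33e-06 for 1 nM and 10 nM, and the probe lies at chr9:122927298-122927357.

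The chromokinesins link chromosome arms to spindle microtubules and push the arms away from the poles. Kif4 (the mouse counterpart of KIF4A, which also shortens the overlapping microtubules of the central spindle) had levels of -1.46, -1.13 and -1.07 on the vehicle arrays, -4.88, -4.96 and -4.50 at 1 nM, and -5.50, -5.39 and -4.94 at 10 nM. Kif22 (Kid, which carries a DNA-binding region) had levels of 2.18, 1.98 and 1.96 on the vehicle arrays, -1.44, -1.54 and -1.42 at 1 nM, and -2.06, -1.95 and -1.77 at 10 nM. In both genes the dose arrays were all below the vehicle arrays, and the Kif22 levels at 10 nM were also all below those at 1 nM. The Kif4 difference was -3.56 (SE 0.19, adjusted p = 1.1e-05) at 1 nM and -4.06 (SE 0.19, adjusted p = 3.49e-06) at 10 nM, and the Kif22 difference was -3.50 (SE 0.10, adjusted p = 4.37e-07) and -3.96 (SE 0.10, adjusted p = 1.53e-07). Their probes lie at chrX:97922085-97922145 and chr7:134171255-134171314. The pseudogene Kif4-ps, whose probe is at chr12:102387271-102387330 and whose transcripts may share sequence with Kif4, ran from -5.18 to -2.80 within the vehicle group and was not called at either dose (-1.08 and -1.07, SE 0.68), nor without vehicle replicate 3 (-0.43 and -0.42).

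Another set acts at microtubule ends. Kif2c (MCAK, a kinesin-13 that depolymerises microtubules and frees wrongly attached kinetochores) had levels of -2.31, -1.93 and -1.57 on the vehicle arrays, -6.50, -6.87 and -6.01 at 1 nM, and -7.78, -7.35 and -8.39 at 10 nM. Its probe was well above background on 3 vehicle arrays, 1 array at 1 nM and 0 arrays at 10 nM. The difference at 1 nM was -4.52 (SE 0.33, adjusted p = 5.07e-05), and at 10 nM Kif2c was at least 28.4-fold lower with an adjusted p of 8.02e-06. Kif18a (kinesin-8, which damps chromosome oscillations at metaphase) had levels of -2.21, -2.11 and -2.36 on the vehicle arrays, -5.10, -4.80 and -4.79 at 1 nM, and -5.44, -5.33 and -5.64 at 10 nM, and Kif18b, its relative that limits astral microtubules, had levels of -1.33, -1.13 and -1.26 on the vehicle arrays, -5.73, -5.91 and -5.55 at 1 nM, and -6.64, -6.80 and -7.57 at 10 nM. The Kif18a difference was -2.67 (SE 0.12, adjusted p = 4.69e-06) at 1 nM and -3.24 (SE 0.12, adjusted p = 1.19e-06) at 10 nM. The Kif18b difference was -4.49 (SE 0.23, adjusted p = 8.68e-06) and -5.76 (SE 0.23, adjusted p = 1.49e-06), and at 10 nM its probe was well above background on 1 of 3 arrays. Groups did not overlap for any of these 3 genes, and the probes lie at chr4:116832904-116832963, chr2:109181416-109181475 and chr11:102767246-102767305. Kif2a, the kinesin-13 relative of Kif2c that is also expressed in non-dividing cells, was not called, with 0.04 at 1 nM and -0.10 at 10 nM (SE 0.07). A dimmer Kif2a probe gave -1.28 and -1.48 (SE 0.90) and was not called (adjusted p = 0.357 and 0.256). Another gave 0.13 and -0.01 and was not called either.

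Motors of the central spindle and of cytokinesis were also lower. Kif20a (MKLP2, which brings the chromosomal passenger complex to the central spindle) had levels of 2.19, 2.25 and 2.15 on the vehicle arrays, -1.34, -1.43 and -1.25 at 1 nM, and -2.04, -1.93 and -1.92 at 10 nM. Kif20b (MPHOSPH1, a motor of late cytokinesis) had levels of 0.53, 0.50 and 0.55 on the vehicle arrays, -2.85, -2.93 and -2.69 at 1 nM, and -3.33, -3.26 and -3.22 at 10 nM. Kif23 (MKLP1, the motor subunit of centralspindlin) had levels of 0.08, 0.18 and -0.25 on the vehicle arrays, -4.00, -4.33 and -4.08 at 1 nM, and -5.21, -5.21 and -5.13 at 10 nM. In all 3 genes no array of 1 group reached another group's range, also between the doses. The differences at 1 nM were -3.54 (SE 0.07, adjusted p = 2.22e-07) for Kif20a, -3.35 (SE 0.08, adjusted p = 2.55e-07) for Kif20b and -4.14 (SE 0.13, adjusted p = 7.66e-07) for Kif23. At 10 nM they were -4.16 (SE 0.07, adjusted p = 6.13e-08) for Kif20a, -3.80 (SE 0.08, adjusted p = 7e-08) for Kif20b and -5.18 (SE 0.13, adjusted p = 1.65e-07) for Kif23. In fold terms Kif20a was 11.6-fold lower at 1 nM and 17.9-fold lower at 10 nM. The probes of these genes lie at chr18:34792251-34792310, chr19:35050047-35050106 and chr9:61767492-61767732. A dimmer Kif23 probe was also called lower (adjusted p = 0.0139 and 0.00686), with no treated array well above background.

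Kif14 (which recruits citron kinase to the midbody) moved least among the mitotic kinesins. Its levels were -3.00, -3.34 and -1.94 on the vehicle arrays, -4.05, -4.24 and -4.17 at 1 nM, and -3.93, -4.23 and -4.44 at 10 nM, and vehicle replicate 3 was about 1 unit above the other vehicle arrays. The difference was -1.39 (SE 0.33, adjusted p = 0.0201) at 1 nM and -1.44 (SE 0.33, adjusted p = 0.0138) at 10 nM. Without vehicle replicate 3 it was -0.98 (adjusted p = 0.00600) and -1.03 (adjusted p = 0.00373). A second, dimmer Kif14 probe, well above background on 2, 3 and 2 arrays with vehicle, 1 nM and 10 nM, gave 0.06 and -0.14 and was not called (adjusted p = 0.910 and 0.748). When all kept probes of a gene were averaged, Kif14 lost its call (adjusted p = 0.208 and 0.143). The other 10 mitotic kinesins were called lower at both doses under each of 23 alternative settings.

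**Figure D3:**
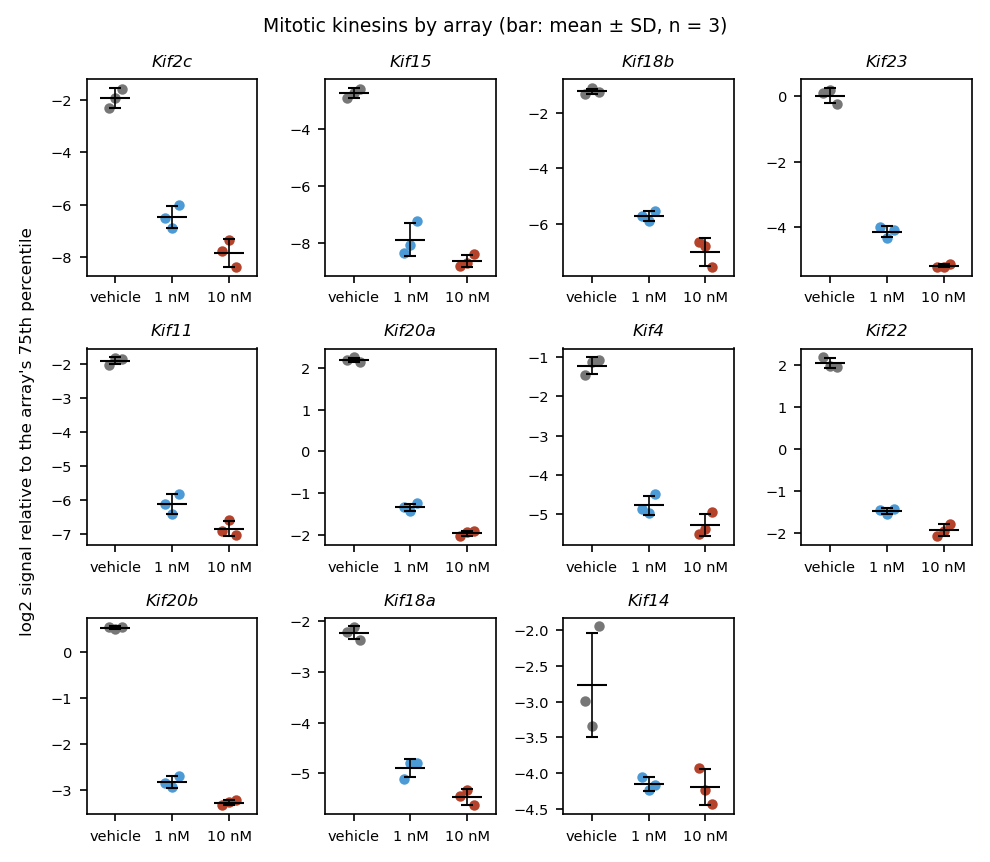
Level of each mitotic kinesin on each array, as log2 signal relative to the array's 75th percentile, for vehicle, 1 nM and 10 nM, with the mean and SD of 3 arrays and a separate vertical scale per gene. In each panel the 6 treated arrays lie below the 3 vehicle arrays.

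The transport kinesins showed smaller differences, in both directions. At 1 nM 2 of 13 were called higher and 2 lower, where 11.8% of genes tested were called higher and 11.8% lower, and the median difference was 0.05. At 10 nM 4 were called higher and 2 lower, where 15.4% and 14.7% of genes were called higher and lower, and the median was 0.08. In either direction 4 of 13 were called at 1 nM, where 23.6% of genes were, and 6 of 13 at 10 nM, where 30.1% were. The lowest transport kinesin, Kif5c at -0.94 and -1.34, lay above the highest mitotic value of the same dose, Kif14 at -1.39 and -1.44. That order rested on vehicle replicate 3, since without it Kif5c was -1.03 and -1.43 and Kif14 -0.98 and -1.03. Of the transport genes, 13 of 13 were well above background on each array that gave a value. Kif3b, and Kif9 among the other kinesins, had no value on vehicle replicate 3, whose spots were marked as non-uniform, so their vehicle mean rests on 2 arrays.

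Kif1b (kinesin-3, which carries mitochondria and synaptic vesicle precursors) was higher at both doses. Its levels were 2.39, 2.33 and 2.24 on the vehicle arrays, 2.87, 2.93 and 2.80 at 1 nM, and 3.18, 3.12 and 3.14 at 10 nM, with no overlap between any groups. The difference was 0.55 (SE 0.07, adjusted p = 0.000813) at 1 nM and 0.83 (SE 0.07, adjusted p = 6.06e-05) at 10 nM, or 1.46-fold and 1.77-fold higher, and its probe lies at chr4:148550431-148550490. A second Kif1b probe gave 0.52 (adjusted p = 0.00859) and 0.55 (adjusted p = 0.00501). The endosomal kinesin-3 motors moved less. Kif13a (a motor of recycling endosomes) had levels of 1.62, 1.34 and 1.58 on the vehicle arrays, 1.78, 1.88 and 1.88 at 1 nM, and 1.87, 1.86 and 1.84 at 10 nM, a difference of 0.33 (SE 0.09, adjusted p = 0.0286) at 1 nM and 0.34 (SE 0.09, adjusted p = 0.0204) at 10 nM. Those Kif13a calls were lost under 12 and 11 of 23 alternative settings (highest adjusted p = 0.555 and 0.319). Kif16b (a motor of early endosomes) had levels of -0.85, -0.92 and -0.58 on the vehicle arrays, -0.64, -0.63 and -0.57 at 1 nM, and -0.50, -0.43 and -0.45 at 10 nM. At 10 nM Kif16b was called higher at 0.32 (SE 0.09, adjusted p = 0.0346), and at 1 nM, where vehicle replicate 3 overlapped the treated arrays, it was 0.17 (SE 0.09, adjusted p = 0.241). Without that array Kif16b was called at 1 nM too, at 0.27 (adjusted p = 0.0217). The Kif16b call at 10 nM was lost under 15 of 23 alternative settings (highest adjusted p = 0.253).

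Kif13b, a kinesin-3 relative, is the transport motor whose result rested most on vehicle replicate 3. Its level there was -2.37, against -6.10 and -5.99 on the other vehicle arrays, -5.02 to -4.66 at 1 nM and -4.77 to -4.49 at 10 nM. With all arrays the difference was -0.05 (SE 0.91, adjusted p = 0.976) at 1 nM and 0.23 (SE 0.91, adjusted p = 0.862) at 10 nM. Without that array it was 1.18 (SE 0.14, adjusted p = 0.000976) and 1.46 (SE 0.14, adjusted p = 0.000248). With vehicle replicate 3 left out, 4 transport kinesins were called higher and 2 lower at 1 nM, where 13.3% and 12% of genes were called higher and lower, and 5 higher and 2 lower at 10 nM, where 17.2% and 15.3% were, while the mitotic count stayed at 11 of 11 for both doses.

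The conventional kinesins of the kinesin-1 family, which carry vesicles and mitochondria as heavy chains bound to light chains, split by gene. Kif5c, a heavy chain mostly studied in neurons, had levels of 0.64, 0.65 and 0.37 on the vehicle arrays, -0.44, -0.28 and -0.44 at 1 nM, and -0.84, -0.68 and -0.81 at 10 nM. All treated arrays were below all vehicle arrays, with a difference of -0.94 (SE 0.10, adjusted p = 0.000398) at 1 nM and -1.34 (SE 0.10, adjusted p = 4.19e-05) at 10 nM. Kif5a, also mainly a neuronal heavy chain, had levels of -3.44, -3.37 and -2.59 on the vehicle arrays, -3.95, -3.81 and -3.86 at 1 nM, and -3.89, -3.77 and -3.89 at 10 nM, and vehicle replicate 3 was the highest array. Its difference of -0.74 (SE 0.21, adjusted p = 0.0405) and -0.71 (SE 0.21, adjusted p = 0.0378) was -0.46 (adjusted p = 0.00490) and -0.44 (adjusted p = 0.00485) without that array. The Kif5a calls were lost under 16 of 23 alternative settings at each dose (highest adjusted p = 0.591 and 0.693). Kif5b, the broadly expressed heavy chain, was not called, at -0.10 and 0.07 (SE 0.22). The probes lie at chr2:49630228-49630287, chr10:126662797-126662856 and chr18:6202515-6202574. Of 10 measured light chains and cargo adaptors of kinesin, 0 were called higher and 1 lower at 1 nM, where 11.8% of genes were called in each direction, and 1 was called higher and 2 lower at 10 nM, where 15.4% and 14.7% were. The adaptor Mapk8ip1 (JIP1) was -0.46 and -0.46 (adjusted p = 0.018 and 0.0134). The mitochondrial adaptors Trak1 and Trak2 were 0.33 and -0.33 at 10 nM (adjusted p = 0.0203 and 0.046).

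Kinesin-2 motors, which include dimers of Kif3a with Kif3b or Kif3c and a motor of intraflagellar transport in cilia, gave 1 call. Kif3c had levels of 0.17, 0.20 and 0.10 on the vehicle arrays, 0.43, 0.32 and 0.32 at 1 nM, and 0.82, 0.50 and 0.59 at 10 nM, and was called at 10 nM with 0.48 (SE 0.09, adjusted p = 0.00648) but not at 1 nM with 0.20 (SE 0.09, adjusted p = 0.179). Whether the doses differed for Kif3c was tested directly, and the step of 0.28 was not called (adjusted p = 0.233). Kif3a was 0.27 and 0.37 (adjusted p = 0.164 and 0.0547), and Kif3b, Kif1a, Kif1c and Kif17 were not called at either dose, with differences between -0.37 and 0.14.

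Among the 9 other kinesins measured, 1 was called higher and 3 lower at each dose, where 11.8% of genes were called in each direction at 1 nM and 15.4% higher and 14.7% lower at 10 nM. With scaling to the array median 1 was called higher and 0 lower at 1 nM, and 1 higher and 1 lower at 10 nM, where Kif26b at 1 nM (adjusted p = 0.402) and Kif21b and Kif24 at both doses lost their calls. Kif26a and Kif26b are atypical kinesins of the kinesin-11 family known for roles in signalling and development. Their main probes moved in opposite directions. Kif26a had levels of -2.95, -2.83 and -2.43 on the vehicle arrays, -0.29, -0.46 and -0.41 at 1 nM, and 0.36, 0.24 and 0.31 at 10 nM, a difference of 2.35 (SE 0.13, adjusted p = 1.41e-05) at 1 nM and 3.04 (SE 0.13, adjusted p = 2.3e-06) at 10 nM. That is 5.09-fold and 8.23-fold higher, the highest difference of the 34 kinesin genes at both doses, from the probe at chr12:113419259-113419318. A second, dimmer Kif26a probe did not show it, at -0.52 (SE 0.43, adjusted p = 0.430) and -0.89 (SE 0.43, adjusted p = 0.165). That probe was well above background on 3, 3 and 2 arrays with vehicle, 1 nM and 10 nM. It was not called in either direction, so the Kif26a rise rests on the brighter probe alone. Kif26b had levels of 0.13, 0.43 and 0.49 on the vehicle arrays, -0.51, -0.59 and -0.52 at 1 nM, and -1.88, -1.83 and -1.87 at 10 nM. The 3 groups were fully separate, with -0.89 (SE 0.10, adjusted p = 0.000471) at 1 nM and -2.21 (SE 0.10, adjusted p = 2.46e-06) at 10 nM from the probe at chr1:180862723-180862782. A second Kif26b probe was -0.34 (adjusted p = 0.0810) and -0.43 (adjusted p = 0.0293).

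Kif21b (a kinesin-4 that regulates microtubule growth, mostly described in neurons and lymphocytes) had levels of 1.13, 0.94 and 0.87 on the vehicle arrays, -0.24, -0.07 and -0.10 at 1 nM, and -0.47, -0.28 and -0.48 at 10 nM. Kif24 (a kinesin-13 of the mother centriole that restrains cilium assembly in dividing cells) had levels of -1.03, -1.07 and -0.89 on the vehicle arrays, -2.00, -2.14 and -2.03 at 1 nM, and -2.16, -2.52 and -2.48 at 10 nM. Neither gene's treated arrays reached its vehicle range. Kif21b was -1.12 (SE 0.10, adjusted p = 0.000139) at 1 nM and -1.39 (SE 0.10, adjusted p = 2.97e-05) at 10 nM, and Kif24 was -1.06 (SE 0.11, adjusted p = 0.000329) and -1.39 (SE 0.11, adjusted p = 5.35e-05). With scaling to the array median the adjusted p was 0.270 and 0.122 for Kif21b and 0.258 and 0.0866 for Kif24. The not-called members, namely the depolymerase Kif2a, the ciliary Hedgehog regulator Kif7, the ciliary motors Kif9 and Kif19a, and Kif21a, had differences between -0.32 and 0.09 at 1 nM and between -0.28 and -0.02 at 10 nM. Without vehicle replicate 3, Kif21a was called higher at 1 nM with 0.41 (SE 0.10, adjusted p = 0.0265), against 0.06 with all arrays, and was not called at 10 nM (0.29, adjusted p = 0.0716). Kif7 changed sign without that array, at 0.21 and 0.24 (adjusted p = 0.128 and 0.0763) against -0.23 and -0.20 with all arrays, and was not called.

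**Figure D4:**
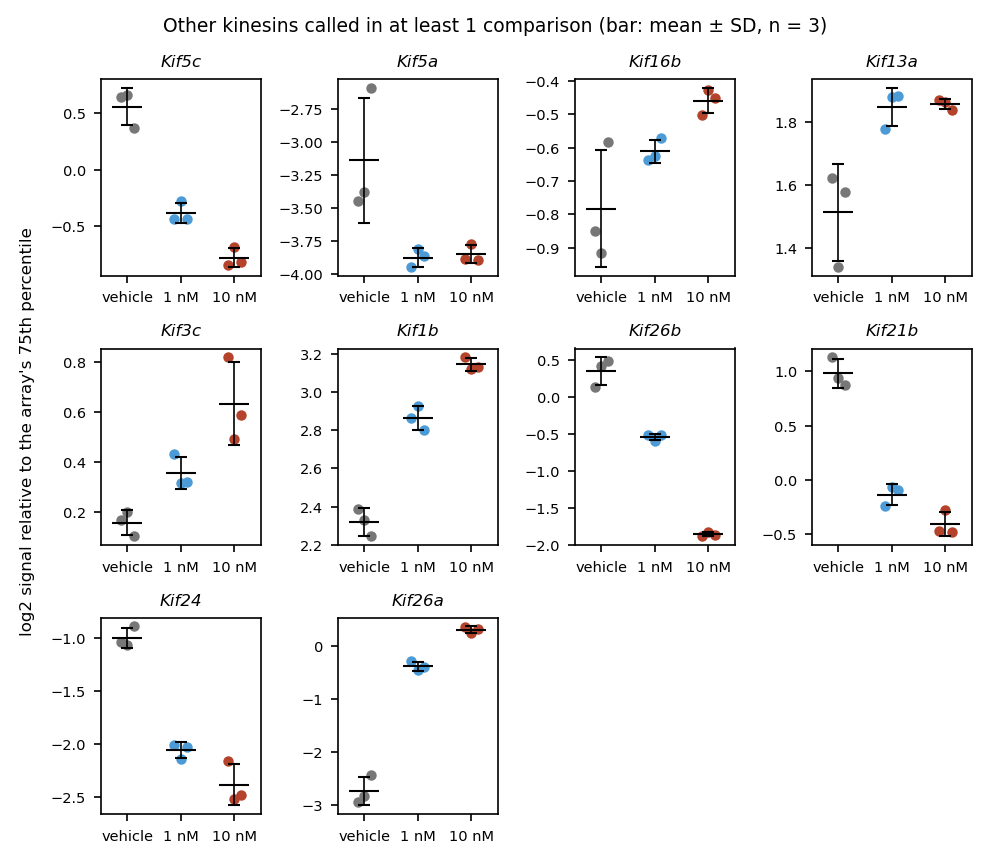
Level on each array of the 10 kinesins outside the mitotic group that were called in at least 1 comparison, as log2 signal relative to the array's 75th percentile, with the mean and SD of 3 arrays and a separate vertical scale per gene. Kif5a, Kif5c, Kif26b, Kif21b and Kif24 were lower on all treated arrays than on any vehicle array. Kif1b, Kif3c, Kif13a and Kif26a were higher on all of them, and Kif16b overlapped at 1 nM. Vehicle replicate 3 is the highest vehicle array for Kif5a, Kif16b, Kif24, Kif26a and Kif26b.

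The step between the doses was smaller. Kif15 and Kif2c were not well above background on any array at 10 nM, and Kif15 on none at 1 nM either, so their steps are not measured. The other 9 mitotic kinesins were all lower at 10 nM than at 1 nM by estimate, from -1.27 to -0.05, against a median of -0.01 over all genes. Their groups did not overlap for 7 of 9, where 11.4% of genes tested were lower without overlap. Calls were made for 4 of 11, all lower, where 2.21% of genes were called lower and 3.81% in either direction. These were Kif18b at -1.27 (SE 0.23, adjusted p = 0.0263), Kif23 at -1.05 (SE 0.13, adjusted p = 0.00613), Kif20a at -0.62 (SE 0.07, adjusted p = 0.00469) and Kif20b at -0.45 (SE 0.08, adjusted p = 0.0207). At 10 nM the probes of Kif18b and of the uncalled Kif11 were well above background on 1 of 3 arrays. The size of their steps therefore rests largely on signals not above background. Same-numbered arrays of these 2 doses deviated together, and so did 10 nM replicate 2 and 1 nM replicate 3, which share slide 2. Pairing by number and a shared slide were not told apart. With the replicate as a block 2 of 11 were called, Kif20a (adjusted p = 0.0285) and Kif23 (adjusted p = 0.0371). Kif18b and Kif20b were not (adjusted p = 0.0890 and 0.0506). Of 23 alternative settings, the call was lost under 5 for Kif20a, 6 for Kif23, 14 for Kif18b and 15 for Kif20b.

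For the transport kinesins limma called 0 of 13 between the doses, where 3.81% of genes were called in either direction, with a median step of 0.03. An unadjusted p under 0.05 was seen for 4 of 13. The share of all genes at that level was not counted, so this number cannot be judged. Among the other kinesins, Kif26a was called higher with a step of 0.69 (SE 0.13, adjusted p = 0.0336) and Kif26b lower with -1.32 (SE 0.10, adjusted p = 0.00072), where 1.6% of genes were called higher. With the replicate block Kif26b kept its call (adjusted p = 0.00812) and Kif26a did not (adjusted p = 0.0845), and the Kif26a call was lost under 16 of 23 alternative settings. Without vehicle replicate 3, which enters this comparison only through the shared estimate of spread, 6 mitotic and 2 transport kinesins were called, where 5.76% of genes were. The added mitotic genes were Kif18a (adjusted p = 0.0410) and Kif22 (adjusted p = 0.0440). The 2 transport genes were Kif1b, with a step of 0.28 (adjusted p = 0.0469), and Kif5c, with -0.39 (adjusted p = 0.0300).

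**Figure D5:**
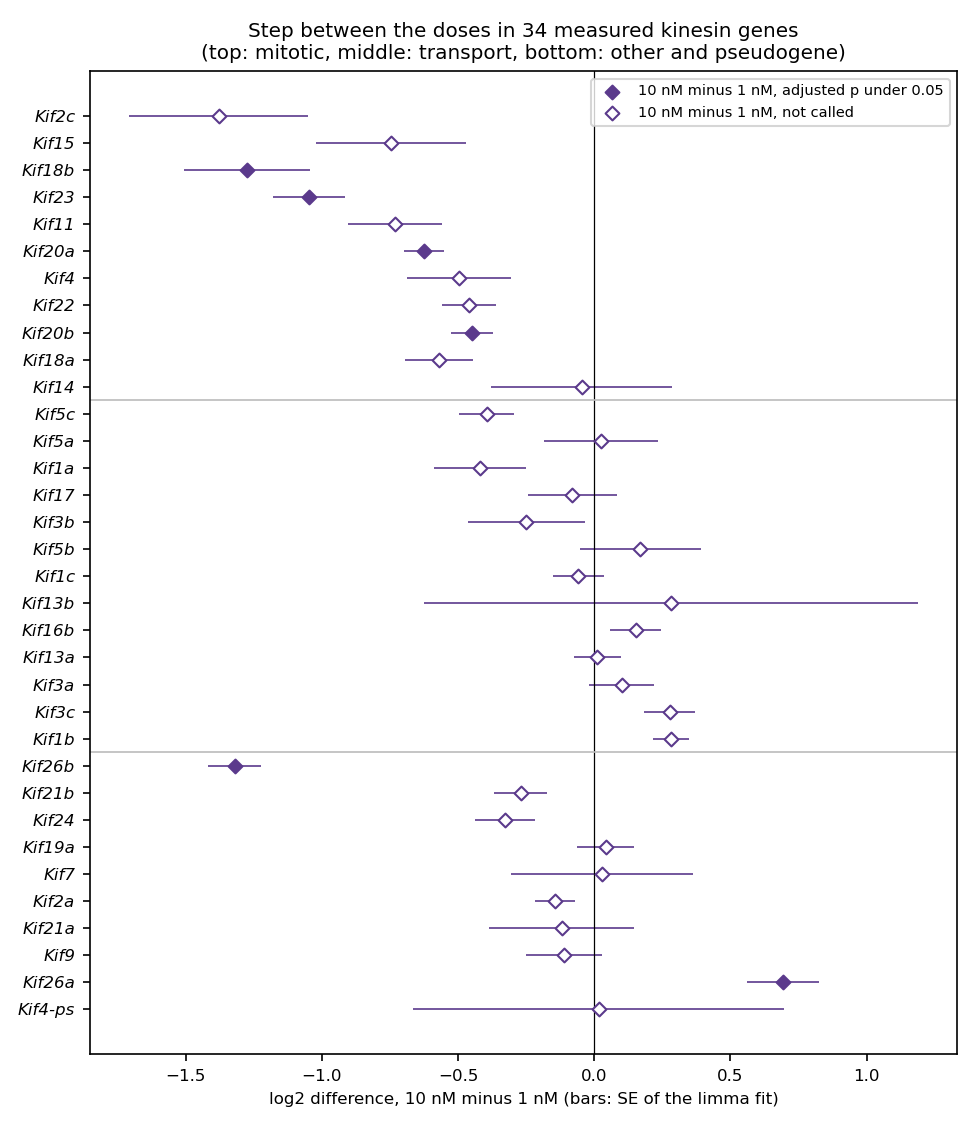
Log2 difference between 10 nM and 1 nM for the 34 measured kinesin genes, with bars for the standard error of the fit and filled symbols for an adjusted p under 0.05. All 11 mitotic estimates lie left of 0, and 4 of them and Kif26a and Kif26b are filled. Those of Kif2c and Kif15 rest on signals not above background, and at 10 nM those of Kif18b and Kif11 largely do.

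Of 5 kinesins with other symbols, 4 were called lower at 1 nM, and at 10 nM 4 were called lower and 1 higher, where the share of all genes called lower was 11.8% and 14.7%. Among those called lower, Kifc5b was not well above background on any treated array and passed the signal filter through the vehicle arrays alone. Its signal may also come from Kifc1, so these calls may not be separate. Kifc1 (a kinesin-14 that focuses spindle poles) was -2.90 (SE 0.41, adjusted p = 0.00178) at 1 nM and -3.93 (SE 0.41, adjusted p = 0.000261) at 10 nM, and Cenpe (the kinetochore kinesin CENP-E) was -3.73 (SE 0.09, adjusted p = 2.55e-07) and -4.30 (SE 0.09, adjusted p = 7.5e-08). Spindle and cytokinesis partners of the mitotic kinesins were called lower in 14 of 14 cases at both doses, where 11.8% and 14.7% of all genes were. Of these, 13 had signal above background in both groups compared. The remaining one, Aurkb, was not above background at either dose and passed the signal filter through the vehicle arrays alone. With Aurkb set at its bound the medians were -3.53 and -3.96. Birc5 (survivin, of the chromosomal passenger complex that Kif20a carries) was -4.27 and -5.02. Cdca8 of the same complex was -3.45 and -3.98, and Anln (the contractile ring protein anillin) was -3.89 and -4.55. Of 18 measured subunits of dynein and dynactin, the motor that runs towards the minus end, 1 was called higher and 1 lower at 1 nM, where 11.8% of genes were called in each direction, and 0 higher and 2 lower at 10 nM, where 15.4% and 14.7% were. The intermediate chain Dync1i1 was -1.06 and -1.66, and the heavy chain Dync1h1 was 0.26 and 0.17. These lists were written with earlier results of these arrays known and are no independent evidence.

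Markers of dividing cells were also lower. All 5 were called lower at both doses, where 11.8% of genes tested at 1 nM and 14.7% at 10 nM were called lower. Their mean level was 2.00 to 2.12 on the vehicle arrays, -1.41 to -1.22 at 1 nM and -1.94 to -1.89 at 10 nM. Mki67 was -4.48 and -5.47, Top2a -4.37 and -5.33, and Ccnb1 -4.05 and -4.88. Pcna moved least, at -0.62 and -0.54, and was not lower at 10 nM than at 1 nM (step 0.09). Markers of other cell types moved too. The mean level of 3 adipocyte markers was -3.40 on vehicle replicate 3 and -7.70 on both other vehicle arrays, -3.03 to -2.85 at 1 nM and -1.97 to -1.37 at 10 nM. Of these, Fabp4 was called higher at both doses (6.94 and 7.59), Adipoq at 10 nM (7.67), and Plin1 at neither. On vehicle replicates 1 and 2 Fabp4 and Adipoq were not well above background. Without vehicle replicate 3 both were called higher at both doses, Fabp4 by at least 112-fold and 175-fold and Adipoq by at least 17.9-fold and 215-fold. Of 2 measured fibroblast markers, Thy1 was -2.86 and -3.54 and Pdgfra 0.47 and 0.49. Thy1 passed the signal filter through the vehicle arrays alone, where its levels were -3.77, -4.05 and -2.78. It was well above background on 2 arrays at 1 nM and 1 at 10 nM, so the size of its differences rests partly on signals not above background. Of the muscle markers, 3 were called higher and 0 lower at 1 nM, where 11.8% of genes were called in each direction. At 10 nM 4 were called higher and 1 lower, where 15.4% and 14.7% of genes were. Myod1 was 0.66 and 0.89 and Myog -0.13 and -0.43. By limma 0 of 3 leukocyte and 0 of 2 endothelial markers were called, with 0 at an unadjusted p under 0.05. Of all genes, 23.6% at 1 nM and 30.1% at 10 nM were called in either direction. Without vehicle replicate 3 the leukocyte marker Cd68 was called higher at both doses (0.75 and 0.80, adjusted p = 0.00307 and 0.00160). In that fit 2 muscle markers were called higher at 1 nM, where 13.3% of genes were. At 10 nM 2 were called higher and 1 lower, where 17.2% and 15.3% of genes were. The part of these shifts in the kinesin results was not tested.

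Within slide 1, where each dose is 1 array against 2 vehicle arrays, 10 of 11 mitotic kinesins were called lower at each dose, and 4.39% and 6.25% of genes were. Within slide 2, where vehicle replicate 3 is the sole vehicle array and 10 nM is 1 array, 11 of 11 were, and 37.8% and 35.6% of genes. In these fits a lone array is assumed to vary like the group with 2 arrays, so they are weak tests. With slide as a block 11 were called at 1 nM and 10 at 10 nM, where 11.8% and 12.6% of genes were called lower. The gene that lost its call in these cases was Kif14. Transport kinesins called at 1 nM and 10 nM numbered 2 and 3 within slide 1, where 7.2% and 11.7% of genes were called, and 6 and 7 within slide 2, where 51.5% and 49.4% were. Between the doses, 0 mitotic kinesins were called within either slide, where limma called 5 genes in all on slide 1 and 0 on slide 2. With normexp background correction and quantile normalization the medians of the mitotic estimates, Kif15 and Kif2c included, were -2.71 and -2.94, with 11 of 11 called lower at both doses. With scaling to the array median, which moved the median of all genes to 0.38 and 0.40, the mitotic medians were -3.07 and -3.63, again with 11 of 11 lower, and 0 and 1 transport kinesins were called, where 1513 and 2532 of 21995 genes were. Kif1b kept its call at 10 nM there (adjusted p = 0.0173) and not at 1 nM (adjusted p = 0.0920), and Kif5c was called at neither dose (adjusted p = 0.416 and 0.151).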

How the data were processed

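Total RNA from 9 C2C12 cultures was labelled with Cy3 and hybridised to 1-colour arrays. The deposited scanner files give linear intensity for the processed, mean and background signals, per the file headers, and, in columns of other kinds, 0 or 1 flags of spot quality, per the file headers. Arrays were read with Agilent Feature Extraction 11.5.1.1, and limma was used, according to the submitters' processing notes. The log2 values of the deposited series table have column medians of 9.65 to 9.73, and follow normexp correction and quantile normalization (r = 0.9999), so genes were not centred. It was used as an alternative.

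Levels were log2 of the processed signal minus the log2 of each array's 75th percentile. Control spots and non-uniform spots were left out and spots of a probe averaged. Kept probes were well above background in every array of some group (28342 probes, 71.9%), and the kept probe with the highest mean stood for its gene. Probe names came from a RefSeq table of GRCm38.p6 by accession (27655 probes) or symbol (3396), and 8378 kept the file's name. Gene names were read from 1 scanner file, because another had names altered by a spreadsheet. Probe coordinates are mm9, and gene structure around them was not analysed here. Array number limits the precision, and no spot was saturated.

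All groups were fitted together with lmFit and eBayes of limma 3.58.1 (R 4.3.3) without a block, with Benjamini-Hochberg adjustment over all genes at 0.05. Replicates were taken as separate cultures from the series' design text. Same-numbered arrays of the 2 doses deviated together (r = 0.144 to 0.484), so blocked values are given for the step between doses. The unlike-numbered 10 nM replicate 2 and 1 nM replicate 3, both on slide 2, also deviated together (r = 0.307). The numbers are therefore not established as pairs. For vehicle the correlations were -0.02 to 0.05 with 1 nM and -0.42 to -0.19 with 10 nM. For any 2 arrays the SD of their log2 differences was 0.25 or more, and 0 values were identical. The fit was first tested on simulated data for 1 nM against vehicle. It recovered 24% of changes of 0.5 log2 units, 50% of 1, 84% of 2 and 92% of 4, and called 4 unchanged genes. Only 50 genes of 21995 were changed at each size, whereas 5188 were called at 1 nM in the data. The adjustment depends on that number, so these shares need not hold for the data. Small changes can still go uncalled. The kinesin genes, their grouping and the gene lists were chosen with earlier results of these data known. The rule for named genes took all kinesins, with values on each array for mitotic ones and others called at least once, up to 3 called members per further list and dose with the smallest p, and Mki67, Kifc1 and Cenpe. Pcna was named in addition, as the least changed marker of dividing cells. Alternatives covered background, scaling, filters, probe choice, blocks, slides, array weights, arrays left out and threshold.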

Additional observations from a re-analysis of the deposited data

How the results depend on the processing

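Of 46 called differences of single kinesins, 24 were called under each of 23 alternatives and none changed direction. The uncalled Kif16b difference at 1 nM was -0.016 within slide 2, where the only vehicle array is replicate 3.

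Genes called at 1 nM numbered 5188, against 3092 at an adjusted p of 0.01, 1513 with array median scaling, 1584 within slide 1, 10449 within slide 2 and 8576 with array weights. At 10 nM they numbered 6622, against 4339, 2532, 2574 and 10019 under the first 4 of these. Between the doses 837 were called, against 370 at 0.01, 518 with normexp and quantile normalization, 58 with median scaling, 368 from the submitters' table, 535 without the probe filter, 1351 with only the 2 groups compared, 459 with the replicate block, 355 when slide was a block, 5 within slide 1, 0 within slide 2, and 1946 with array weights. Mitotic calls between the doses were 4, against 2 at 0.01, without the filter and with the replicate block, 1 with normexp, and 0 with median scaling, the submitters' table and within each slide. Transport calls at 1 nM were 4, against 0 with median scaling and 2 at 0.01, with the submitters' table, without the filter, with only the 2 groups compared, with the replicate block and within slide 1. At 10 nM they were 6, against 1 with median scaling and 3 at 0.01, with the 2 groups compared and within slide 1. Between the doses they were 0, against 1 with the 2 groups compared and 2 with array weights.

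Leaving out 1 array at a time gave 3506 to 5570, 5104 to 7155 and 366 to 1267 genes for 1 nM, 10 nM and the step between doses. The mitotic counts were 10 to 11, 10 to 11 and 2 to 6, and the transport counts 2 to 6, 3 to 7 and 0 to 2. Transport calls were 2 at 1 nM without 1 nM replicate 2 or 3 or 10 nM replicate 2, and 3 at 10 nM without any 1 of the 10 nM replicates. Mitotic calls between the doses were 2 without 1 nM replicate 1 or 3 or 10 nM replicate 2, and genes called there were 366 to 467 without any 1 of the 6 dose arrays. Kif14 lost its call at 1 nM without 1 nM replicate 2 or 3, and at 10 nM without 10 nM replicate 3. Median scaling without vehicle replicate 3, chosen after seeing the data, called 3636, 5452 and 575 genes, with 11, 11 and 3 mitotic and 3, 6 and 0 transport kinesins. Calls at 1 nM split into 2589 higher and 2599 lower, against 940 and 573 with median scaling and 2784 and 7665 within slide 2. The replicate block ended the calls of Kif5a at both doses (adjusted p = 0.0596 and 0.0541) and of Kif13a at 1 nM (adjusted p = 0.0604), and for numbers that the data did not pair this is no sign of a weaker effect. Signals not above background limit Kif15, Kif2c, Kifc5b and Aurkb to bounds.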

Other observations

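Probes of 1 kinesin gene did not always move together. Of the 38 kinesin genes, 11 had more than 1 kept probe. The Kif14, Kif23, Kif26a, Kif26b and Kif2a probes differed in size or direction as given in the report, and Kif1b probes were both called higher at both doses. Uncalled probes of other genes also gave unlike estimates, such as -0.10 and -0.80 at 1 nM for Kif5b. Which transcripts each probe measures was not tested.

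Kifc5b, a gene closely related in sequence to Kifc1, was not well above background at either dose, at least 6.32-fold lower at 1 nM and at least 6.14-fold lower at 10 nM (adjusted p = 0.000155 and 2.99e-05), and its signal cannot be separated from Kifc1 where the probe matches both. Of the remaining kinesin-14 genes, Kifc3 was -0.43 and -0.77 (adjusted p = 0.0204 and 0.000984). Kifc2 was 0.37 at 1 nM (adjusted p = 0.101) and 0.47 at 10 nM (adjusted p = 0.0364), and without vehicle replicate 3 it was called higher at both doses (0.48 and 0.59, adjusted p = 0.0297 and 0.0111).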
